A study of Mus musculus with 516 samples.

Results

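The genes described here encode 6 intermediate filament proteins, chosen by name: Nefl, Nefm and Nefh, the light, medium and heavy subunits of neurofilaments, Prph (peripherin), Ina (alpha-internexin) and Vim (vimentin). They are 6 of the 11251 genes in a table of read counts from 516 single cells of mouse dorsal root ganglia (DRG), the ganglia that hold the cell bodies of sensory neurons. The study asked how DRG cells of 2 mouse strains, CAST/Ei and C57BL/6, differ before and after axotomy in vitro, in which dissociation cuts the axons and the cells are then plated. Cultured cells stayed on bare plastic for 48 h, with ara-C (an inhibitor of cell division) from 24 h on, and were lifted with trypsin; the labels call them injured. Naive cells were captured directly after dissociation. CAST/Ei gave 273 cells, 99 of them cultured, and C57BL/6 gave 243; in all, 210 cells were cultured and 306 naive. The labels give no animal, age, sex, culture or capture run, so each group counts as 1 sample, and no difference between groups could be tested. All cells had passed a mesh of 35 µm, which limits the size of the neurons caught.

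Intermediate filaments are rope-like polymers of the cytoskeleton that give a cell mechanical strength. In neurons the light subunit forms the core of the neurofilament, the medium and heavy subunits add long side arms that are phosphorylated in the axon, and alpha-internexin and peripherin join the same polymers. Neurofilament content goes with axon calibre, antibodies to the heavy subunit are a standard marker of large myelinated DRG neurons, and peripherin is the usual marker of small unmyelinated ones. Vimentin is the filament of glia, fibroblasts, endothelium and immature neurons.

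In GRCm38 (the build also called mm10), the principal GENCODE transcript of Nefl lies at chr14:68083863-68089095 on the plus strand, with 4 exons. That of Nefm lies at chr14:68119283-68124846 on the minus strand, with 3 exons, and 30.2 kb separate the pair. Nefh lies at chr11:4938754-4948064 on the minus strand with 4 exons, Prph at chr15:99055175-99058977 on the plus strand with 8, Ina at chr19:47014698-47025327 on the plus strand with 3, and Vim at chr2:13573952-13582826 on the plus strand with 9. A longer annotated Nefm transcript runs across all of Nefl on the opposite strand, and Nt5c2 overlaps Ina by 0.456 kb, also on the opposite strand. The libraries do not mark strand, so reads of these overlaps cannot be told apart, and Nefl, Nefm and Ina are uncertain to that extent.

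What sets the heavy subunit apart is the repeat that its side arm carries, in which the codons for lysine, serine and proline (AAATCNCCN or AAGTCNCCN, read in frame) recur as the target of tail kinases. A search of the coding sequence of each principal transcript found 49 of these repeats in Nefh, 4 in Nefm and 0 in Nefl, Prph, Ina and Vim. The stretches with most repeats are shown so that the difference between both side arms can be read directly. They are printed in the direction of transcription, with the repeat codons in capitals. The Nefh stretch is in exon 4, at chr11:4940815-4941054 on the minus strand (coding bases 1564 to 1803), and holds 13 repeats. The Nefm stretch is in exon 3, at chr14:68120844-68121083 on the minus strand (coding bases 1501 to 1740), and holds 2.
Nefh: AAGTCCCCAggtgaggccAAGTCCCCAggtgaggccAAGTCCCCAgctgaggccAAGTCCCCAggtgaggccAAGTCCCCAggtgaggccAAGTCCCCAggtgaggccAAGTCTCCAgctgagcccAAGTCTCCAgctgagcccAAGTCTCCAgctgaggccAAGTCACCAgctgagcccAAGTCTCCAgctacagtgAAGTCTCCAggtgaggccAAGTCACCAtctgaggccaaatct
Nefm: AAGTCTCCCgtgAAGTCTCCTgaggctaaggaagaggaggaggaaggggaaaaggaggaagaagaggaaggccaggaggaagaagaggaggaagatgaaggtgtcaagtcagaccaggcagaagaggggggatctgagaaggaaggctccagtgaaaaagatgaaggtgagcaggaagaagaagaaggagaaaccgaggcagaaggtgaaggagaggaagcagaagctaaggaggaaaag
In the Nefh stretch the 13 repeats each stand 3 codons from the next, from its first base almost to its last, while the Nefm stretch holds both of its repeats at its start.

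The cells held between 13932 and 2978345 reads, with a median of 839147. Clustering on variable genes other than the 6 gave 15 clusters, and clusters were named from fixed marker lists. Neuron-like cells were 34 (30.6%) of the cultured and 87.9% of the naive C57BL/6 cells, and 61 (61.6%) of the cultured and 90.2% of the naive CAST/Ei cells. Cultured neuron-like cells thus numbered 95 and naive ones 273. The rest were glia-like (34 cultured and 8 naive in C57BL/6, 25 cultured and 9 naive in CAST/Ei), fibroblast-like (43 in C57BL/6 and 13 in CAST/Ei, all cultured) or endothelial and mural-like (8 in each strain, all naive). Levels are given as CPM, the reads of a gene as counts per 1000000 reads of the cell or of the summed cells, with a 95% Poisson interval for sums that covers counting error only. Ratios are log2 of (CPM + 1) of summed neuron-like cells, and a gene is counted as apart at 2-fold or more.

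Levels between genes were compared per kb of the principal transcript. Naive CAST/Ei neuron-like cells had Prph at 470 CPM per kb, Nefl at 457, Nefm at 136.8, Vim at 56.98, Ina at 14.7 and Nefh at 12.99. Naive C57BL/6 neuron-like cells outside cluster 15, described next, had Prph at 578 CPM per kb, Nefl at 412, Nefm at 111.2, Vim at 96.7, Nefh at 21.5 and Ina at 7.23, so only the last pair stood in another order. Prph and Nefl were the highest of the 6 per kb in naive neuron-like cells in both strains. Nefl had at least 5 reads in every neuron-like cell of the 4 groups, Nefm in all but 1 cultured C57BL/6 cell and Prph in every naive one. Nefh, Ina and Vim were patchier. With each cell thinned to 200000 reads, at least 5 reads of Nefh were found in 73.2% of naive CAST/Ei cells and 76.1% of naive C57BL/6 cells, and at least 5 of Vim in 74.5% of the CAST/Ei and 64.2% of the C57BL/6 cells. Of the naive cells, 8 in CAST/Ei and 7 in C57BL/6 were too shallow for this and were left out.

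A small set of naive C57BL/6 neurons carried 65.6% of the Nefh reads of naive C57BL/6 neuron-like cells. Cluster 15, led by Clec2l, Cbln2 and Kcnc1, held 11 cells, all naive C57BL/6. Nefh in these cells had a lowest value of 1510 CPM, a median of 2273 and a highest of 5673, against a highest value of 898 CPM in the other 262 naive neuron-like cells. The values of the 11 cells did not overlap with those of any other neuron-like cell. Nefh was not among the genes used for clustering, but it was among the genes that led the cluster. The separation therefore describes cells grouped by genes that vary with it, and the share of all genes separated likewise was not counted. Nefm in the same cells ran from 1701 to 10790 CPM with a median of 2722, against at most 1662 CPM in other naive neuron-like cells. It did not overlap with those naive cells, but it did with cultured neuron-like cells, which reached 1995 CPM. Nefl ran from 1933 to 12020 CPM with a median of 3774 and overlapped with other naive cells, which reached 7708 CPM.

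Measured per kb, cluster 15 differed in filament make-up from the sums of other naive C57BL/6 neurons and of naive CAST/Ei neurons. In cluster 15 Nefl was 1.497 times as high as Nefm and 2.47 times as high as Nefh. These values were 3.71 and 19.1 in other naive C57BL/6 neurons, and 3.34 and 35.2 in naive CAST/Ei neurons. Subunit ratios near those of cluster 15 also occurred in naive C57BL/6 cells of cluster 10. Nefl was at 56.3 CPM per kb there, Nefm at 30.8 and Nefh at 20.5, all below Prph at 381.9. In cluster 15 Nefl was at 1310 CPM per kb, Nefm at 875 and Nefh at 530, all above Prph at 465.3. Naive CAST/Ei cells of cluster 10 had Nefl at 141.8, Nefm at 85.2 and Nefh at 5.12. The 3 neurofilament subunits made up 83.9% of the per-kb sum of the 6 genes in cluster 15, against 44.4% in other naive C57BL/6 neurons and 52.8% in naive CAST/Ei neurons. Prph, at 867 CPM in cluster 15, was within the range of the other naive clusters (610 to 1415 CPM), and Vim was low, at 17.5 CPM. Ina reached 150 CPM in the sum, though 2 of the 11 cells had no read of it.

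**Figure D1:**
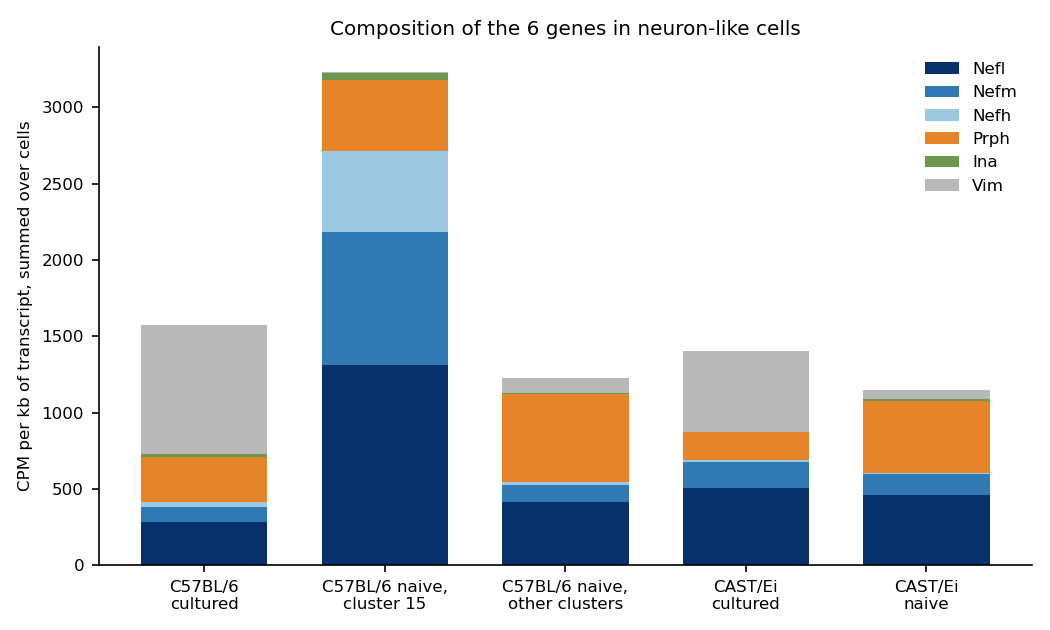
Stacked CPM per kb of principal transcript for the 6 genes, from reads summed over cultured C57BL/6, naive C57BL/6 (cluster 15 and the other clusters), cultured CAST/Ei and naive CAST/Ei neuron-like cells. Cluster 15 stands highest, at 3235 CPM per kb, and is the only bar with a broad band of Nefh; Vim fills 53.6% of the cultured C57BL/6 bar and 37.7% of the cultured CAST/Ei bar.

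Genes of large-fibre neurons accompanied the subunits in cluster 15, as a description of the cells that the clustering had grouped. Of 14 large-fibre markers in the table, 12 were at least 2-fold higher there than in other naive C57BL/6 neurons and 0 lower, and all 18 small-fibre markers were at least 2-fold lower. The share of all genes past 2-fold in this comparison was not counted, so these counts stand without a background. Kcnc1, a fast potassium channel subunit, was at 103.2 CPM against 2.66, Scn1a, a sodium channel, at 560 against 59.6, and Ntrk3, the neurotrophin-3 receptor, at 180 against 38.8. Scn10a, the sodium channel of nociceptors, was at 5.59 CPM against 393, and Calca, which encodes CGRP, at 31.3 against 4825. No naive CAST/Ei cell fell in the cluster, and 0 among the neuron-like cells of that group allows a share of up to 1.91%, while it held 9.48% of naive C57BL/6 neuron-like cells (exact 95% interval 4.83% to 16.3%). How many cells of a type were caught may depend on dissociation and capture, which the labels do not split by run.

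**Figure D2:**
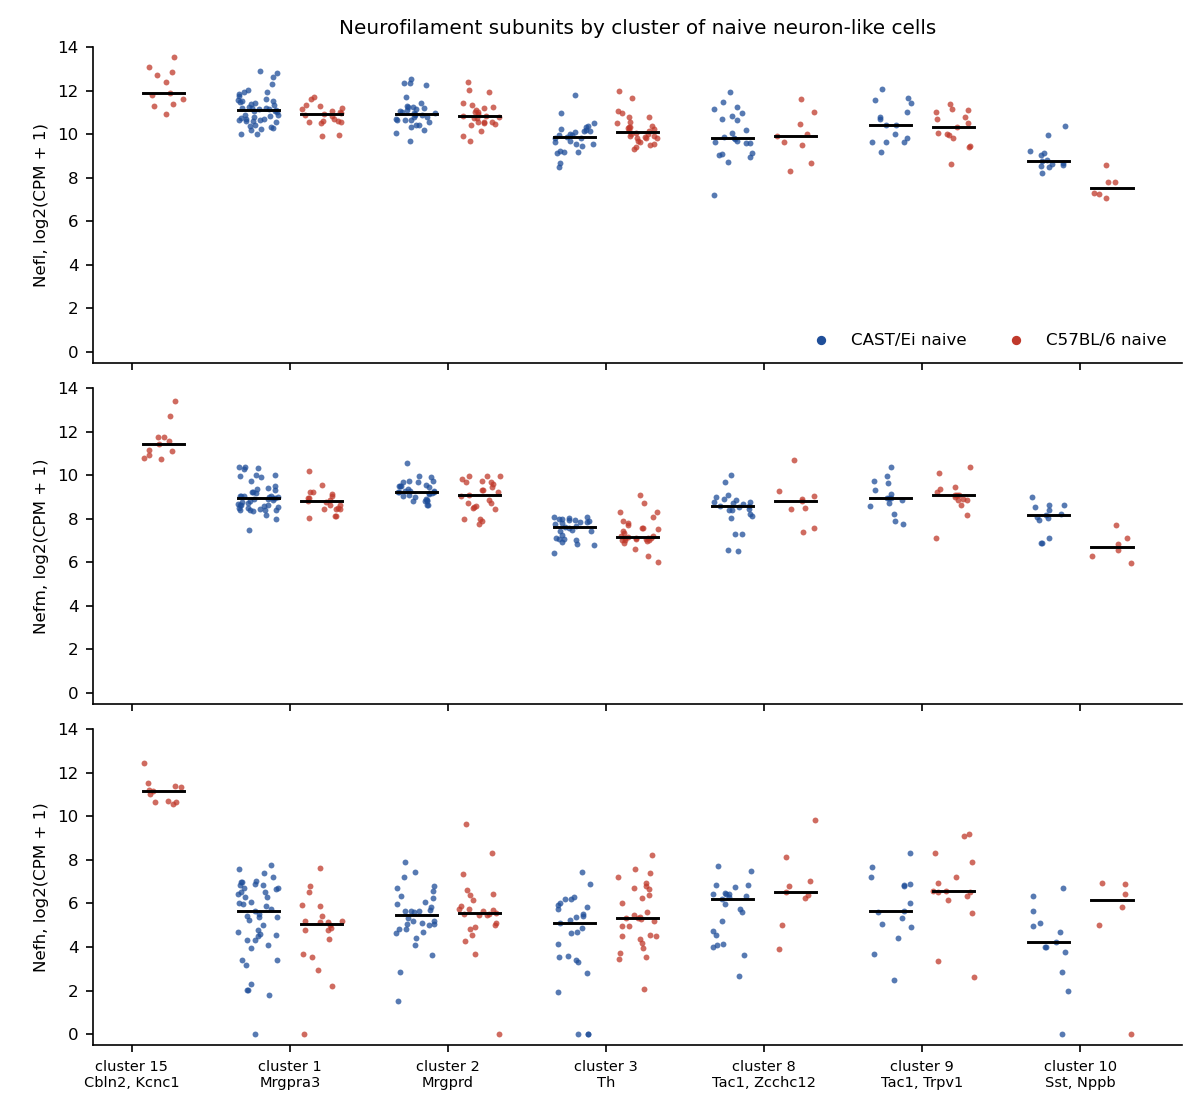
Nefl, Nefm and Nefh in log2(CPM + 1) per naive neuron-like cell, by cluster, with CAST/Ei left of C57BL/6 and a bar at the median. Cluster 15 has C57BL/6 cells only and stands above all other clusters for Nefm and Nefh; in cluster 10 both Nefl and Nefm medians are lower in C57BL/6 than in CAST/Ei.

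Among the 6 naive clusters with cells of both strains, the light and medium subunits differed between neuron types in both strains. Nefl was highest in cluster 1, led by the itch receptor gene Mrgpra3, with 2403 CPM in 47 CAST/Ei cells and 1915 CPM in 20 C57BL/6 cells. It was lowest in cluster 10, the Sst and Nppb cells, with 479 CPM in 13 CAST/Ei cells (299 to 1307) and 190.2 CPM in 6 C57BL/6 cells (130.98 to 383). Nefm was highest in cluster 2 of CAST/Ei, the Mrgprd cells, at 624 CPM, with 520 CPM there in C57BL/6. In cluster 10 it was at 284 CPM in CAST/Ei and 102.6 CPM in C57BL/6. Cluster 3, the Th cells, combined low Nefm, at 202 CPM in CAST/Ei and 206 CPM in C57BL/6, with the highest Prph, at 1044 CPM in CAST/Ei and 1415 CPM in C57BL/6.

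Ina also differed between neuron types. It was nearly absent from cluster 10, at 0.829 CPM in CAST/Ei and 0.144 CPM in C57BL/6, with no read in 9 of 13 CAST/Ei and 5 of 6 C57BL/6 cells. In cluster 2 it stood at 76.4 CPM in CAST/Ei and 36.01 CPM in C57BL/6. Vim had its highest naive neuron-like level by sums in cluster 8, the Tac1 and Zcchc12 cells, at 376 CPM in CAST/Ei and 829 CPM in C57BL/6. In C57BL/6, 1 cell of 4775 CPM held 64.5% of the Vim reads of the 9 cells. That cell held 23.5% of all Vim reads of naive C57BL/6 neuron-like cells. Without it cluster 8 was at 331.5 CPM in C57BL/6, below cluster 9 at 424.9 CPM, which was at 317.8 CPM without its own cell with most reads. The C57BL/6 medians were 260.1 CPM in cluster 8 and 305.7 CPM in cluster 9.

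Across single naive cells Nefl and Nefm went together, with a Spearman correlation of 0.65 in CAST/Ei and 0.67 in C57BL/6. The CAST/Ei cells were 47, 32, 27, 23, 15 and 13 in clusters 1, 2, 3, 8, 9 and 10, and the C57BL/6 cells 20, 25, 30, 9, 15 and 6 in the same clusters and 11 in cluster 15. These are descriptions across cells of 1 library set each, which share depth and cell type. Nefm and Nefh had 0.13 in CAST/Ei and 0.43 in C57BL/6, or 0.24 over the C57BL/6 cells outside cluster 15. Prph and Nefl had 0.40 in CAST/Ei and 0.18 in C57BL/6, and Prph and Nefm 0.05 in CAST/Ei and -0.10 in C57BL/6. In cultured cells Nefl and Nefm kept 0.60 over 61 CAST/Ei cells and 0.53 over 34 C57BL/6 cells.

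The genes most like each of the 6 were ranked over 6340 genes by the lower of both strains' correlations in naive neuron-like cells. Nefl was closest to Stmn3 (0.52), a stathmin-family microtubule regulator, Tubb3 (0.49), the neuronal beta-tubulin, Aplp2 (0.45), Uchl1 (0.44) and Sult4a1 (0.43). The genes close to Nefm included Tspan12 (0.45), Rgs7 (0.45), Basp1 (0.42) and Pcsk2 (0.41). Prph had the closest company, with Pmm1 (0.71), Aldoart2 (0.68), Atp6v0b (0.66), Aldoart1 (0.66) and Tppp3 (0.66); Aldoart1 and Aldoart2 are retrogene copies of Aldoa, whose reads they may share. Nefh was closest to Hopx (0.36), Map7d2 (0.26), Rpp21 (0.25), Mapk8ip1 (0.23) and Cdk5 (0.23), the kinase of neurofilament tails, and Ina to Kcnip2 (0.36), Plcxd3 (0.34), Ngfrap1 (0.33), Entpd3 (0.32) and Mgst3 (0.31), all weak. Vim was closest to Sparc (0.58), Apoe (0.55), Timp3 (0.52), Ppap2b (0.50) and Cd63 (0.50), of which Apoe is on the glia marker list.

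**Figure D3:**
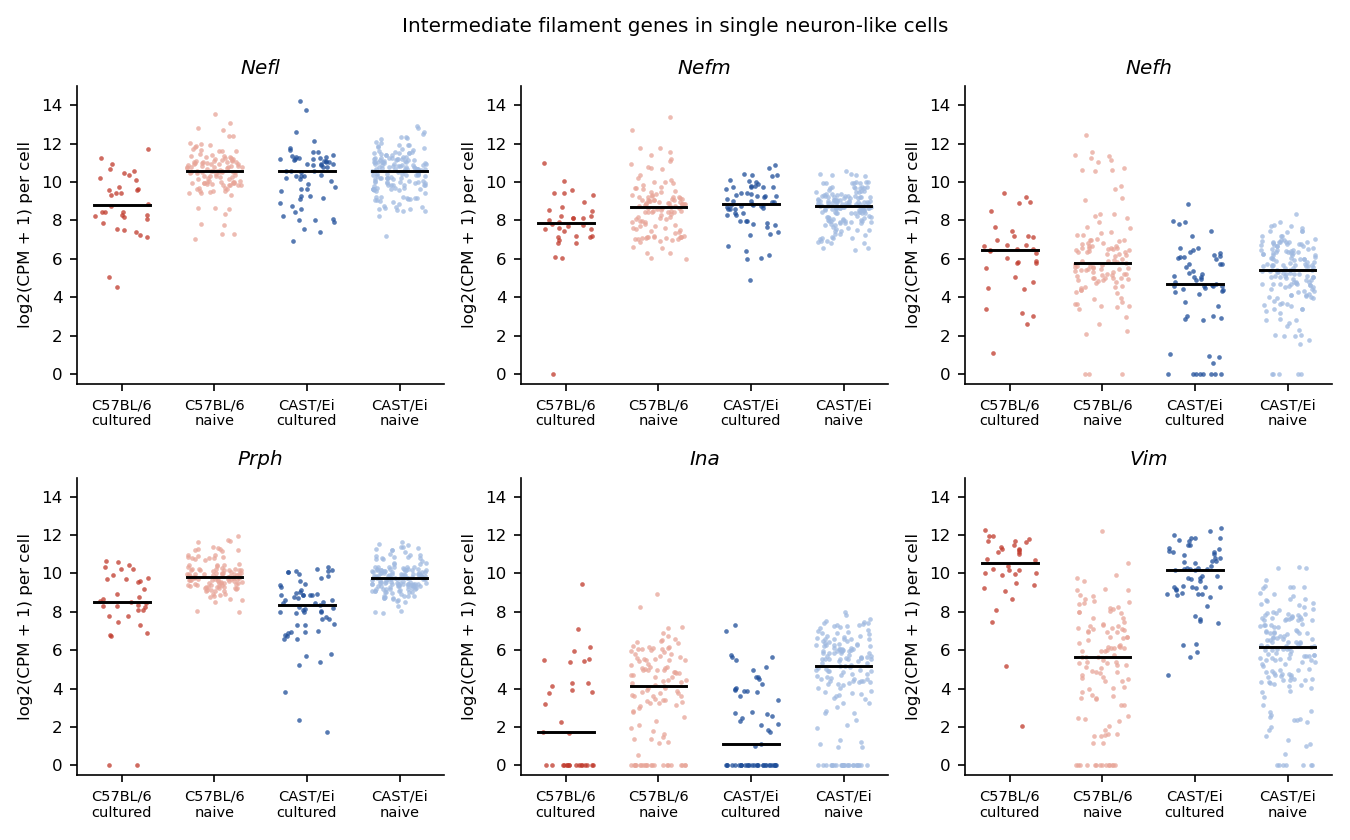
Each point is 1 neuron-like cell, in log2(CPM + 1), for the 6 genes in cultured and naive cells of C57BL/6 and CAST/Ei, with a bar at the median. Vim stands higher and Prph lower in cultured than in naive cells of both strains, Nefl is lower in cultured C57BL/6 cells only, and Ina has many cultured cells at 0.

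In the comparison of cultured with naive C57BL/6 neuron-like cells, 2 of the 6 genes were at least 2-fold higher (Ina and Vim) and 0 lower. Past the same fold were 20.8% of all 11251 genes on the higher side and 24.3% on the lower side, so a count of 2 among 6 is close to the background. In CAST/Ei, 1 gene (Vim) was at least 2-fold higher and 2 (Prph and Ina) lower, against 23% of all genes higher and 22.2% lower. The median log2 ratio of the 6 was -0.76 in C57BL/6 and 0.12 in CAST/Ei, beside -0.15 in C57BL/6 and 0.01 in CAST/Ei over all genes. No test stands behind these counts, since each group is 1 sample.

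In the sums, the neurofilament subunits were lower in cultured C57BL/6 neurons, by less than 2-fold. For Nefm and Nefh this depended on the 11 cells of cluster 15, without which the log2 ratio of Nefh was 0.59. Nefl was at 944 CPM (930 to 959) in cultured cells, against 1611 CPM (1603 to 1619) in naive cells, a log2 ratio of -0.77. Per cell, Nefl ran from 22.4 to 3363 CPM with a median of 442 in cultured cells, and from 130.98 to 12020 CPM with a median of 1505 in naive cells. The groups overlapped, with 5 of 34 cultured cells above the naive median, and the ratio of medians was -1.76 on the log2 scale, past 2-fold. Nefm was at 329 CPM in cultured and 554 CPM in naive cells (log2 ratio -0.75), with 8 of 34 cultured cells above the naive median. Without the 11 cells of cluster 15 the naive C57BL/6 level of Nefm was 370.7 CPM and the log2 ratio was -0.17, near the median of all genes, and that of Nefl was -0.56. With Leiden in place of Ward clusters, which left 85 naive C57BL/6 cells as neuron-like, the ratios of Nefm and Nefh were -1.08 and -1.19, past 2-fold. With Ward clusters, the 16 neuron markers used to name clusters had a median log2 ratio of -0.86 in the same comparison. Whether the subunits fell apart from neuronal genes at large was not tested.

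In cultured CAST/Ei neurons Nefl and Nefm were at or slightly above the naive level. Nefl was at 1702 CPM (1692 to 1712) in cultured cells, against 1544 CPM (1538 to 1550) in naive cells, a log2 ratio of 0.14. Its cells ran from 118.3 to 19332 CPM with a median of 1522 in culture, and from 144.6 to 7708 CPM with a median of 1533 when naive, so the medians nearly coincided. Nefm was at 574 CPM in cultured and 456 CPM in naive cells (log2 ratio 0.33), and 35 of 61 cultured cells lay above the naive median. The log2 ratio of Nefl was 0.91 higher in CAST/Ei than in C57BL/6 and that of Nefm 1.08 higher, and 38.8% of all genes had a strain difference larger than that of Nefl and 31.6% one larger than that of Nefm. Without cluster 15 the strain difference was 0.70 for Nefl and 0.50 for Nefm.

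Cultured neuron-like cells fell mainly into cluster 4, with the injury genes Sprr1a, Sox11 and Gal among its leading genes, and cluster 7, led by Nkain1, whose cells had a median of 4649 genes with a read, against 8990.5 in cluster 4. Nefl differed between these clusters: in cluster 4 it was at 1217 CPM in 32 CAST/Ei cells and 506 CPM in 24 C57BL/6 cells, and in cluster 7 at 2013 CPM in 28 CAST/Ei cells and 1783 CPM in 9 C57BL/6 cells. Cluster 7 held 28 of 61 cultured neuron-like cells in CAST/Ei and 9 of 34 in C57BL/6. Within cluster 4 the log2 ratio of Nefl to the naive cells of the same strain was -0.34 in CAST/Ei and -1.67 in C57BL/6, and within cluster 7 it was 0.38 in CAST/Ei and 0.15 in C57BL/6. The low Nefl of cultured C57BL/6 cells was seen in cluster 4 and not in cluster 7.

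Nefh in culture turned on how it was summarised. It was at 130 CPM in cultured C57BL/6 cells, against 232 CPM in naive ones, a log2 ratio of -0.83. Its medians ran the other way, at 85.3 CPM in cultured and 54.6 CPM in naive cells, and 22 of 34 cultured cells lay above the naive median. Without the 11 cells of cluster 15 the naive level was 86.1 CPM, below the cultured 130 CPM. In CAST/Ei, Nefh was at 55.4 CPM in cultured and 51.9 CPM in naive cells, with medians of 25.1 CPM in cultured and 42.1 CPM in naive cells.

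Prph was lower in culture in both strains. It was at 555 CPM (544 to 566) in cultured C57BL/6 cells, against 1061 CPM (1055 to 1068) in naive ones, a log2 ratio of -0.93. In CAST/Ei it was at 340 CPM (336 to 345) in cultured cells, against 875 CPM (870 to 880) in naive ones, a log2 ratio of -1.36, past 2-fold. Every naive neuron-like cell had at least 242 CPM of Prph, while 2 cultured C57BL/6 cells had no read, and 10 of 61 CAST/Ei and 7 of 34 C57BL/6 cells in culture lay above the naive median of their strain. Clusters 4 and 7 both had lower Prph than the naive cells, with log2 ratios in C57BL/6 of -0.91 for cluster 4 and -0.999 for cluster 7, and in CAST/Ei of -1.21 for cluster 4 and -1.56 for cluster 7.

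Ina was lower in most cultured cells of both strains, and its higher sum in C57BL/6 came from 1 cell. In CAST/Ei it was at 8.18 CPM (7.50 to 8.91) in cultured cells, against 47.5 CPM (46.5 to 48.6) in naive ones, a log2 ratio of -2.40. In C57BL/6 the sums gave 71.4 CPM in cultured and 32.5 CPM in naive cells, a log2 ratio of 1.11, but the medians were 2.29 CPM in cultured and 16.9 CPM in naive cells. A single cell of cluster 7 with 687 CPM held 76.2% of the cultured C57BL/6 reads of Ina and 7.91% of the group's reads of all genes. Without it the cultured cells were at 18.5 CPM, and with the naive cell with most reads of Ina also left out the log2 ratio was -0.61. With cells thinned to 200000 reads, at least 5 reads of Ina were found in 7 of 28 cultured and 44.95% of naive C57BL/6 cells, and in 16.4% of 55 cultured and 57.7% of naive CAST/Ei cells. In cells that were not neuron-like the same share was 4.35% of 69 cultured and 13.3% of 15 naive C57BL/6 cells, and 2.86% of 35 cultured and 14.3% of 14 naive CAST/Ei cells.

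Vim had the largest ratio of the 6 genes in culture by sums, at about the same size in both strains. It was at 1850 CPM (1830 to 1870) in cultured C57BL/6 neuron-like cells, against 198 CPM (195 to 201) in naive ones, a log2 ratio of 3.22. In CAST/Ei it was at 1162 CPM (1154 to 1170) in cultured cells, against 124.97 CPM (123.2 to 126.7) in naive ones, a log2 ratio of 3.21. The medians were 1499 CPM in cultured and 48.8 CPM in naive C57BL/6 cells, and 1178 CPM in cultured and 71.4 CPM in naive CAST/Ei cells. In C57BL/6 32 of 34 and in CAST/Ei 58 of 61 cultured cells were above the naive median, with an overlap in the low cultured cells.

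Markers of glia, fibroblasts and dividing cells were mostly higher in culture in the same neuron-like cells, while endothelial and mural markers were more often lower. Of 14 glia markers in the table, 9 were at least 2-fold higher in cultured than in naive neuron-like cells in C57BL/6 and 9 in CAST/Ei, while 2 were lower in C57BL/6 and 0 in CAST/Ei. Sox10, a defining glia gene, was at 59.5 CPM in cultured and 2.92 CPM in naive C57BL/6 cells, and at 129.04 CPM in cultured and 1.94 CPM in naive CAST/Ei cells. The summed glia markers were closer, at 3285 CPM in cultured and 3519 CPM in naive C57BL/6 cells, and 3103 CPM in cultured and 2742 CPM in naive CAST/Ei cells. Of 11 fibroblast markers, 9 were higher in C57BL/6 and 7 in CAST/Ei, and all 10 markers of dividing cells were higher in both, summing to 1500 CPM in cultured and 8.78 CPM in naive C57BL/6 cells and to 1166 CPM in cultured and 15.3 CPM in naive CAST/Ei cells. Among 10 endothelial and mural markers, 1 was higher and 4 lower in C57BL/6, and 0 were higher and 8 lower in CAST/Ei. Of 16 neuron markers, 2 were higher and 6 lower in C57BL/6, with a median log2 ratio of -0.86. In CAST/Ei 1 was higher and 6 lower, with a median of -0.54. The summed neuron markers were at 10035 CPM in cultured and 16403 CPM in naive C57BL/6 cells, and at 10875 CPM in cultured and 17175 CPM in naive CAST/Ei cells. Over all genes, 20.8% were higher and 24.3% lower in C57BL/6, and 23% higher and 22.2% lower in CAST/Ei. The part of these markers in the Vim result was not tested.

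Glia-like cells had more Vim than neuron-like cells: 6427 CPM in cultured and 2890 CPM in naive C57BL/6 glia-like cells, and 3900 CPM in cultured and 2212 CPM in naive CAST/Ei cells, with cultured fibroblast-like cells at 2529 CPM in CAST/Ei and 3638 CPM in C57BL/6. Across neuron-like cells, Vim and the mean of the glia markers had a Spearman correlation of 0.79 over 34 cultured and 0.55 over the naive C57BL/6 cells, and of 0.68 over 61 cultured and 0.52 over the naive CAST/Ei cells. With dividing-cell markers it was 0.86 in cultured and -0.07 in naive C57BL/6 cells, and 0.33 in cultured and 0.05 in naive CAST/Ei cells. With fibroblast markers it was 0.54 in cultured and 0.41 in naive C57BL/6 cells, and 0.37 in cultured and 0.28 in naive CAST/Ei cells. The median of the glia marker mean, on the log2(CPM + 1) scale, was itself higher in culture, at 5.34 in cultured and 3.05 in naive C57BL/6 cells and at 4.36 in cultured and 2.43 in naive CAST/Ei cells. Cultured and naive cells were not matched on it. Without the neuron-like cells in the highest quartile of that mean, the log2 ratio of Vim was 3.48 in C57BL/6 and 2.76 in CAST/Ei. The quartile was taken over all neuron-like cells together, and its removal left 14 of the 34 C57BL/6 cells in culture and 35 of the 61 CAST/Ei cells in culture.

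**Figure D4:**
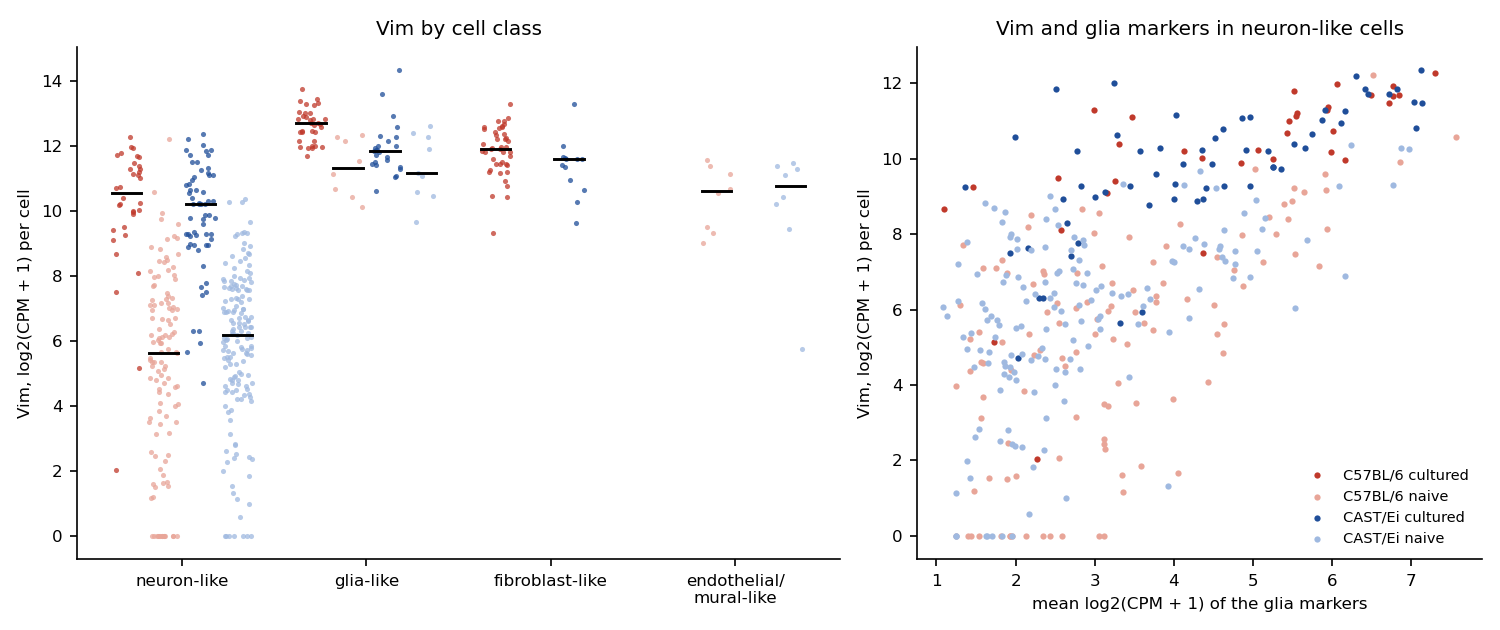
Left, Vim in log2(CPM + 1) per cell by cell class, with cultured left of naive in each strain and a bar at the median. Right, Vim against the mean log2(CPM + 1) of the glia markers in neuron-like cells: cultured cells lie higher on both axes, with a median glia marker mean of 5.34 in cultured and 3.05 in naive C57BL/6 cells, and of 4.36 in cultured and 2.43 in naive CAST/Ei cells.

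Neuronal filament genes were in turn counted in cells that were not neuron-like. Nefl was at 127.4 CPM in cultured and 885 CPM in naive C57BL/6 glia-like cells, and at 556 CPM in cultured and 589 CPM in naive CAST/Ei cells. In cultured fibroblast-like cells it was at 321 CPM in CAST/Ei and 93.6 CPM in C57BL/6. Ina was far lower in the same cells, at 2.66 CPM in cultured and 0.109 CPM in naive C57BL/6 glia-like cells and 0.509 CPM in cultured and 2.75 CPM in naive CAST/Ei cells. Nefh was at 456 CPM in the 8 naive C57BL/6 glia-like cells, where 1 cell held 50.5% of its reads, and at 297 CPM without that cell. In the naive CAST/Ei glia-like cells it was at 42.3 CPM, and at 11.8 CPM without the cell that held 76.9% of its reads.

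The 2 strains were then set side by side within each state. In naive neuron-like cells, 0 of the 6 genes were at least 2-fold higher and 1 (Nefh) lower in CAST/Ei than in C57BL/6, against 7.23% of all genes higher and 5.99% lower. In cultured cells 0 were higher and 2 (Nefh and Ina) lower, against 21.5% higher and 13.6% lower. The median log2 ratio of the 6 was -0.28 in naive and -0.69 in cultured cells, beside 0.06 in naive and 0.16 in cultured cells over all genes. Reads of CAST/Ei cells carry variants against the C57BL/6 reference genome, which can lower their counts, and this cannot be told apart from a lower level.

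Nefh was at 51.9 CPM (50.8 to 53.02) in naive CAST/Ei cells, against 232 CPM (229 to 235) in naive C57BL/6 cells, a log2 ratio of -2.14. The 11 cells of cluster 15 held 65.6% of the C57BL/6 reads of Nefh, with 7.18% of the reads of all genes. They also held 37.9% of the Nefm reads, 33.1% of Ina, 19.7% of Nefl, 5.87% of Prph and 0.635% of Vim. Without them C57BL/6 was at 86.1 CPM and the log2 ratio was -0.72, short of 2-fold. The median cell had 42.1 CPM in CAST/Ei and 54.6 CPM in C57BL/6, a ratio of -0.37.

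That the strains shared 6 naive neuron-like clusters depended on Ward clustering. With Leiden clusters, most naive neuron-like clusters held naive cells of 1 strain only. Within the 6 shared naive clusters, Nefh was lower in CAST/Ei in 5, and by at least 2-fold in 3. Without the cell with most Nefh reads in each cluster and strain it was lower in 5 and by at least 2-fold in 1, cluster 10. In cluster 9, the Tac1 and Trpv1 cells, it was at 62.8 CPM in 15 CAST/Ei cells and 130 CPM in 15 C57BL/6 cells. In cluster 8 it was at 63 CPM in CAST/Ei and 137.2 CPM in C57BL/6, where 1 cell of 898 CPM held 39.2% of the Nefh reads. Without the cell with most reads in each strain, cluster 8 was at 56.9 CPM in CAST/Ei and 88.7 CPM in C57BL/6. The level in cluster 10 was 20.4 CPM in CAST/Ei and 81.8 CPM in C57BL/6. Cluster 1 had the opposite order, at 60.2 CPM in CAST/Ei and 53.5 CPM in C57BL/6, or 55.9 CPM in CAST/Ei and 32.4 CPM in C57BL/6 without those cells. In cultured cells Nefh was at 55.4 CPM in CAST/Ei and 130 CPM in C57BL/6, a log2 ratio of -1.21, and it was lower in CAST/Ei in cluster 4 (62.7 against 112.1 CPM) and in cluster 7 (49.9 against 167.8 CPM). In C57BL/6, 1 cell held 40.3% of the Nefh reads of cluster 4 and 1 cell 45.6% of those of cluster 7. Without the cell with most reads in each strain, cluster 4 was at 51.6 CPM in CAST/Ei and 71.6 CPM in C57BL/6, and cluster 7 at 33.8 CPM in CAST/Ei and 108.7 CPM in C57BL/6.

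Ina had the reverse pattern in naive cells. It was at 47.5 CPM in CAST/Ei and 32.5 CPM in C57BL/6, a log2 ratio of 0.54, and higher in CAST/Ei in 6 of 6 shared naive clusters, by at least 2-fold in 3. In cluster 9 it was at 54.5 CPM in CAST/Ei and 11.8 CPM in C57BL/6, with medians of 60.4 CPM in CAST/Ei and 1.33 CPM in C57BL/6, and in C57BL/6 1 of the 15 cells held 45.8% of the reads. Without cluster 15 the log2 ratio was 0.99. The lower sum of cultured CAST/Ei cells, a log2 ratio of -2.98, rests in part on the C57BL/6 cell described above: without the cell with most Ina reads in each group it was -1.39, and the ratio of medians was -0.63.

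Nefl and Nefm differed little between naive strains, at log2 ratios of -0.06 for Nefl and -0.28 for Nefm, and more in culture. Without cluster 15 the naive ratios were 0.15 for Nefl and 0.30 for Nefm. Nefl was at 1702 CPM in cultured CAST/Ei cells and 944 CPM in cultured C57BL/6 cells (log2 ratio 0.85), and 50 of 61 CAST/Ei cells lay above the C57BL/6 median of 442 CPM. Nefm was at 574 CPM in CAST/Ei and 329 CPM in C57BL/6 (0.80), with 49 of 61 above the C57BL/6 median. The per-cell ranges overlapped. Cultured cells that were not neuron-like had the same strain order for Nefl, at log2 ratios of 2.28 in fibroblast-like cluster 6 and 0.80 in glia-like cluster 5. For Nefm the ratios were 1.88 in cluster 6 and -0.15 in cluster 5. The higher cultured CAST/Ei level was thus not limited to neuron-like cells. Prph (-0.28 naive, -0.70 cultured) and Vim (-0.66 naive, -0.67 cultured) were lower in CAST/Ei sums by less than 2-fold, and the naive Vim median was higher in CAST/Ei, at 71.4 CPM against 48.8 CPM.

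**Figure D5:**
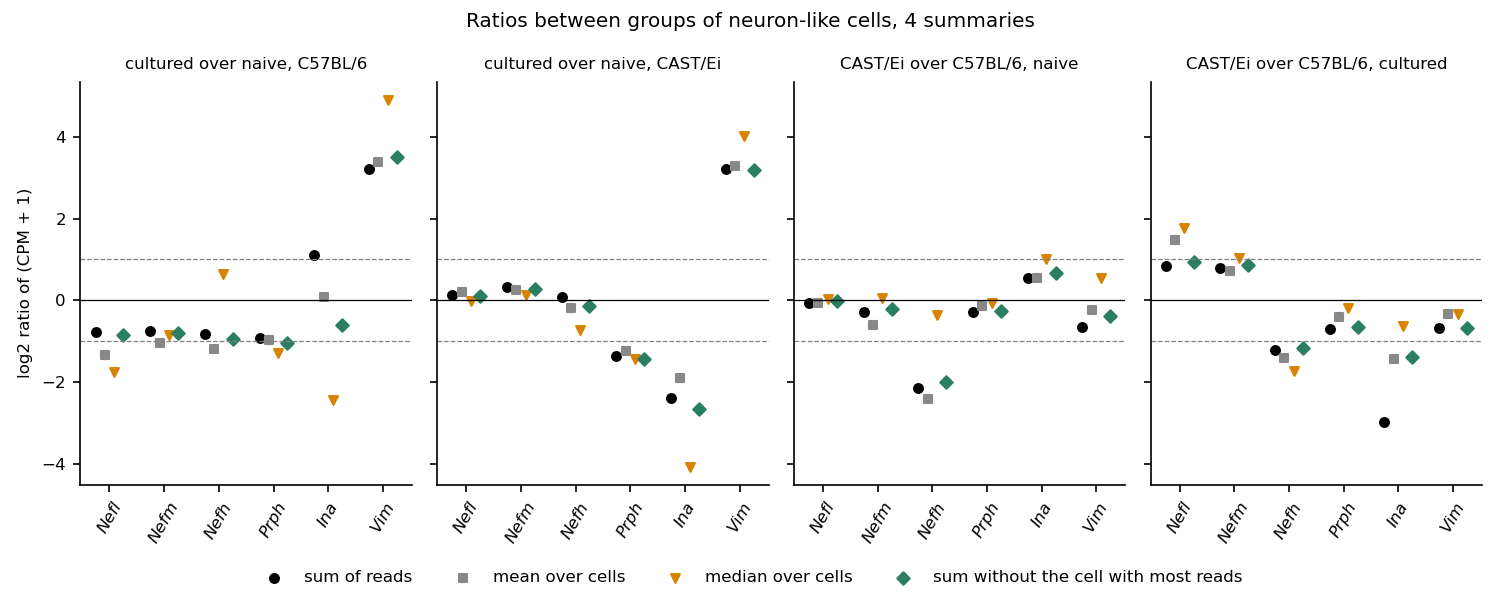
Log2 ratio of (CPM + 1) for the 6 genes in the 4 comparisons, from sums of reads, means over cells, medians over cells, and sums without the cell with most reads of the gene in each group; dashed lines mark 2-fold. All summaries of Vim in culture lie past 2-fold on the higher side (3.22 to 4.91 in C57BL/6); those of Ina in C57BL/6 culture run from 1.11 to -2.44 and those of Nefh in naive strains from -0.37 to -2.41.

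Around the 6 genes, other filament genes also differed in culture. Of 7 other intermediate filament and lamin genes in the table, 4 were at least 2-fold higher and 1 lower in cultured C57BL/6 cells, and 4 higher and 2 lower in CAST/Ei. Over all genes, 20.8% were higher and 24.3% lower in C57BL/6 culture, and 23% higher and 22.2% lower in CAST/Ei. The same shares stand beside the list counts that follow. Levels of list genes are sums over neuron-like cells, given without medians, and a single cell may carry much of a sum. Nes (nestin), a filament of progenitors and Schwann cells, was at 89.8 CPM in cultured and 3.15 CPM in naive C57BL/6 cells, and at 111.9 CPM in cultured and 2.66 CPM in naive CAST/Ei cells. Gfap, the filament of reactive glia, was at 17.99 CPM in cultured and 1.01 CPM in naive C57BL/6 cells, and at 107.9 CPM in cultured and 2.69 CPM in naive CAST/Ei cells, and both are also expressed by cells that are not neurons. Synm (synemin), a large filament protein that co-assembles with vimentin, went the other way, at 41.8 CPM in cultured and 165.9 CPM in naive C57BL/6 cells, and 24.1 CPM in cultured and 117.3 CPM in naive CAST/Ei cells.

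Of 15 genes that link, carry or degrade neurofilaments, 2 were higher and 1 lower by 2-fold in C57BL/6 culture, and 3 higher and 2 lower in CAST/Ei. These counts were below the shares over all genes on either side. Kif5a, the kinesin that carries neurofilaments along the axon, was at 291 CPM in cultured and 1214 CPM in naive C57BL/6 cells, and at 258 CPM in cultured and 1131 CPM in naive CAST/Ei cells. Cryab, a small heat shock protein that binds filaments, was at 404 CPM in cultured and 47.7 CPM in naive C57BL/6 cells, and at 499 CPM in cultured and 29.5 CPM in naive CAST/Ei cells. Dst (dystonin), which links filaments to microtubules, was near its naive level, at log2 ratios of 0.04 in C57BL/6 and -0.22 in CAST/Ei, and Trim2, a ubiquitin ligase of Nefl, at 0.39 in C57BL/6 and 0.62 in CAST/Ei.

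Of 17 kinases and phosphatases of filament tails, 5 were higher and 2 lower in C57BL/6 culture, and 4 higher and 1 lower in CAST/Ei. Against the shares over all genes, the higher counts were close to the background and the lower counts were below it. Cdk5r1, the activator p35 of Cdk5, was at 150 CPM in cultured and 30.5 CPM in naive C57BL/6 cells. Rock2 was at 290 CPM in cultured and 95.9 CPM in naive C57BL/6 cells, and at 451 CPM in cultured and 85.3 CPM in naive CAST/Ei cells. Of 18 tubulin and microtubule genes, 2 were higher and 4 lower in C57BL/6 culture, and 2 higher and 6 lower in CAST/Ei, with Tubb6 at log2 ratios of 3.55 in C57BL/6 and 3.18 in CAST/Ei and Tubb4a at -2.52 in C57BL/6 and -3.50 in CAST/Ei.

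Subtype markers were lower in cultured cells too. Of 14 large-fibre markers, 0 were higher and 10 lower in C57BL/6 culture, and 1 higher and 7 lower in CAST/Ei. Of 18 small-fibre markers, 1 was higher and 15 lower in C57BL/6, and 0 higher and 16 lower in CAST/Ei. Over all genes, 24.3% were lower in C57BL/6 culture and 22.2% in CAST/Ei. Cultured neurons were not matched to naive subtypes, so a difference in which subtypes were caught cannot be told apart from a change of level within a cell.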

How the data were processed

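Single DRG cells were captured on a microfluidic chip, their polyA RNA was amplified there, and tagmented libraries were sequenced with cells of all conditions on each run, per the labels' protocols. The authors deposited unnormalised counts of reads for each gene in each cell, without molecular identifiers. The submitters' processing notes name Bowtie2, SAMtools and mm10; how genes were counted and filtered, and on which annotation, is not given in the sources used here.

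All 516 columns were matched to samples by title, and 0 pairs of cells held identical counts. Reads were scaled to CPM on each cell's total, and 2000 variable genes other than the 6, on log2(CPM + 1), gave 20 principal components (scanpy 1.11.5). Ward clustering (scikit-learn 1.9.0) took the place of Leiden clustering, which had left 31 naive C57BL/6 cells unnamed; this was chosen after seeing the data, and Leiden is an alternative. A cluster took the name of the marker list with the highest mean, unless its leading 10 genes held more markers of another class than its own, with subtype genes counted as neuronal. No doublets were called and no cell was filtered. A level of 0 in n cells allows a share of up to 3 in n. Reads were summed over neuron-like cells per group. Exact Poisson and Clopper-Pearson 95% intervals (SciPy 1.17.1) cover counting error only. The ratio calculation was checked on simulated Poisson counts of group sums with known folds. That check holds no spread between cells, so it covers the arithmetic and counting error only. Alternatives used edgeR 4.0.16 and DESeq2 1.42.0 for scaling factors only. The principal transcripts and coding sequences are GENCODE M21. Values without cluster 15 and without the cell with most reads of a gene were also added after seeing the data. Named genes were the 6 and the 5 closest to each. From each list came the 2 genes farthest up and the 2 farthest down in culture, with at least 20 CPM in a group. Genes listed for their role beside neurofilaments (such as Trim2, Dst, Kif5a, Hspb1, Nes and Gfap) could also be named. Sox10 and the genes set beside cluster 15 were chosen after their values were seen. Mapt, Kif5b, Map1b and Stmn1 were among the farthest of their lists between strains and were named outside this rule. The members, lists and alternatives were chosen with earlier results of these data known. Some genes that this rule names are not reported here.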

Additional observations from a re-analysis of the deposited data

Results flagged for a closer look

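The response of Ina to culture differed in sign between strains when reads were summed. Its log2 ratio of cultured over naive neuron-like cells was -2.40 in CAST/Ei and 1.11 in C57BL/6, a difference of -3.51 (CAST/Ei minus C57BL/6). Of all genes, 1.39% had a strain difference of larger size. The difference was not tested, since each group is 1 sample. In C57BL/6 the sign rests on 1 cultured cell with 687 CPM, the next highest having 134.6 CPM, and without the cell with most reads of Ina in each group the C57BL/6 ratio was -0.61 and the CAST/Ei ratio -2.66.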

How the results depend on the processing

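In C57BL/6 culture, the 2 genes at least 2-fold higher became 1 (Vim) with a pseudocount of 10 CPM, by the mean or the median over cells, over all cells of the group, and without the cell with most reads of the gene in each group. The 0 lower genes became 3 by the mean (Nefl, Nefm, Nefh), 3 by the median (Nefl, Prph, Ina), 4 over all cells (the subunits and Prph), 2 with Leiden clusters (Nefm, Nefh) and 1 without the cell with most reads (Prph). The counts in CAST/Ei culture did not move under any setting. Between naive strains, the median gave 1 higher (Ina) and 0 lower, and leaving out cluster 15 gave 0 lower. Between cultured strains, the 0 higher became 1 by the mean (Nefl), 2 by the median, 2 over all cells (both times Nefl and Nefm) and 1 without the highest quartile of glia marker means (Nefm), and the 2 lower became 1 by the median (Nefh) and 1 over all cells (Ina). The Ina ratio in C57BL/6 culture reversed to -2.44 by the median, -0.88 over all cells and -0.61 without the cell with most reads.

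Vim in culture stayed past 2-fold in all settings (2.99 to 4.91 in C57BL/6, 2.76 to 4.03 in CAST/Ei), as did Prph (-1.82 to -1.25) and Ina (-4.07 to -1.66) in CAST/Ei culture. TMM or DESeq2 scaling kept the sign of 24 of 24 ratios, and the median over cells of 17. Using all reads moved 8 of 24 shares of cells outside their interval, and a minimum of 1 read moved 11. The cause of these moves was not tested. No paired analysis was possible because the labels give the groups no shared animal, culture or run and no test was made.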

Other observations

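Between strains, several genes around the filaments differed in culture. Cdk5r1, the activator of Cdk5, was at 17.2 CPM in cultured CAST/Ei and 150 CPM in cultured C57BL/6 neuron-like cells, and Map2, a dendritic microtubule protein, at 82.3 CPM in CAST/Ei and 737 CPM in C57BL/6. Mapt (tau) had the reverse order, at 260 CPM in CAST/Ei and 63.8 CPM in C57BL/6, as did Kif5b, a kinesin heavy chain, at 1622 CPM in CAST/Ei and 734 CPM in C57BL/6. Of 18 tubulin and microtubule genes, 1 was at least 2-fold higher and 6 lower in cultured CAST/Ei than in cultured C57BL/6 cells. Over all genes, 21.5% were higher and 13.6% lower between cultured strains, and 7.23% higher and 5.99% lower between naive strains. In naive cells 0 of the 18 were higher and 2 lower. Map1b, a microtubule protein of growing axons, was at 6859 CPM in CAST/Ei and 17651 CPM in C57BL/6, and Stmn1 at 219.6 CPM in CAST/Ei and 636 CPM in C57BL/6. Hspb1, a small heat shock protein, was at 3.71 CPM in naive CAST/Ei and 19.1 CPM in naive C57BL/6 cells. All these levels are sums over cells, given without medians and without leaving out any cell. A single cell may carry much of a sum, as for Ina, where 1 cultured C57BL/6 cell held 7.91% of the group's reads of all genes.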
